A study of Mus musculus with 2 samples.

Results

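The clustered histone genes are described here in hepatocytes cultured from control mice and from *Drp1*LiKO mice. Members were all genes of the array whose name begins with Hist1h, Hist2h, Hist3h or Hist4h, the older names of the histone genes that lie in clusters. This gave 56 of 37074 gene names and 68 of 56605 probes, with 6 names of the linker histone H1, 18 of H2A, 14 of H2B, 9 of H3 and 9 of H4. Control mice carried *Drp1*flox/flox without Cre and are called wild type in the sample labels, and their *Drp1*LiKO littermates carried *Alb-Cre* Tg/+ with *Drp1*flox/flox, both with the strain background C57BL/6 in the sample labels. The albumin promoter drives Cre in hepatocytes, so that other liver cells of *Drp1*LiKO mice keep *Drp1*. The hepatocytes were isolated by collagenase perfusion and harvested 24 h after seeding. Total RNA was labeled with Cy3 and hybridized to 60-mer Agilent arrays, 1 array per genotype. The study purchased young adult male C57BL/6J mice, and the sources used here do not say whether that age and sex hold for these littermates, nor how many animals an array pooled.

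Neither genotype had a replicate, so no test was made, and every difference is one between 2 arrays. A signal is the processed intensity of the scanner file, a linear scale without unit. Because the *Drp1*LiKO array was brighter by 0.18 on the log2 scale at its 75th percentile, that percentile was subtracted on each array before the log2 ratio of *Drp1*LiKO over control was taken, so a negative ratio means lower in *Drp1*LiKO cells. A probe was counted as detected if its signal stood well above background on 1 array or both, as it did for 30275 probes. Spread is known only between spots of one array. For probes printed 10 times, the ratio of single spots had a median SD of 0.36 in the 7 dim ones, 0.14 in the 13 of middle signal and 0.05 in the 270 bright ones. *Dnm1l*, the gene of DRP1, had signals of 2602 (control) and 1217 (*Drp1*LiKO), which is a log2 ratio of -1.28.

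Core histones H2A, H2B, H3 and H4 form the protein spool of the nucleosome, and H1 binds the DNA that links nucleosomes. Most clustered histone genes have no intron and are transcribed mainly in S phase, when new DNA has to be packed, and the coactivator NPAT switches them on. Their mRNAs end in a conserved stem-loop instead of a poly(A) tail. The stem-loop binding protein SLBP holds this hairpin, and the U7 small nuclear ribonucleoprotein guides the cut behind it. Several clustered genes also make longer, polyadenylated transcripts that pass the stem-loop, above all in cells that no longer divide. The adult liver divides little, and hepatocytes can enter the cell cycle after injury and in culture. The labeling kit starts from an oligo(dT) primer, so these arrays read histone mRNAs as far as such a primer copied them, and the part of this in the values was not tested.

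The stem-loop is shown first, because 13 of the 68 probes hold all or part of it. In 6 probes it is whole. The lines give 30 bases around it, 5′ to 3′ along the mRNA, with the stem-loop in capitals. The sequences come from the array files, and the coordinates are those of mm9. They lie in the order of the lines at chr13:23665629-23665658 (minus strand), chr3:96074086-96074115 (plus), chr13:23853756-23853785 (minus), chr13:23627749-23627778 (plus), chr13:21874784-21874813 (minus) and chr13:21903990-21904019 (plus), all behind the stop codon.
Hist1h2bf: taacccaaaGGCTCTTTTCAGAGCCaccta
Hist2h2bb: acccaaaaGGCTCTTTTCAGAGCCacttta
Hist1h3a: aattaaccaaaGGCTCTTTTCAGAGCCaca
Hist1h3g: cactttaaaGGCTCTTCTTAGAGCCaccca
Hist1h3i: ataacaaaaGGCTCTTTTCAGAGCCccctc
Hist1h4m: caactaaaGGCCCTTTTCAGGGCCatccaa
The first 6 and the last 6 bases of the capitals pair with each other, and the 4 bases between them form the loop. *Hist1h2bf*, *Hist2h2bb*, *Hist1h3a* and *Hist1h3i* share all 16 letters, *Hist1h3g* has another loop, and *Hist1h4m* another stem.

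Of the 68 histone probes, 55 were detected, 51 of them on both arrays and 4 on 1 array, and 13 were not detected on either. The detected probes covered 48 of the 56 gene names. No probe of *Hist1h2ad*, *Hist1h2al*, *Hist1h2bp*, *Hist1h2bq*, *Hist1h3a*, *Hist2h2aa1*, *Hist2h2ab* or *Hist3h2bb-ps* was well above background. No spot of a member was saturated.

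Histone probes were mostly lower in *Drp1*LiKO cells. A log2 ratio below 0 was found for 44 of the 55 detected histone probes (80.0%), against 53.6% of all detected probes. The median log2 ratio of the histone probes was -0.64, a signal 1.56-fold lower, whereas the median of all detected probes was -0.03. Among the 51 histone probes well above background on both arrays, 41 were lower, with a median of -0.72. Without the filter on dim probes, which adds 13 histone probes not detected on either array, the histone median was -0.47 and that of all probes was -0.47 as well. This is the median ratio of probes whose signals were set to the floor for dim signals on both arrays. The setting therefore cannot separate histone probes from the rest. At least 2-fold lower were 17 histone probes (30.9%), against 4.13% of all. None was at least 2-fold higher, where 4.71% of all probes were. The Z score relates a ratio to the mean and SD over all detected probes, and a Z score of 2 in size stood at a log2 ratio of 1.30 or -1.31. Past it on the lower side were 7 histone probes (12.7%), against 2.49% of all detected probes, and on the higher side none, against 2.94%. The count on the lower side depended on the processing. It was 2 without the floor for dim signals, 14 with normexp background correction and 24 with a Z score built on medians. The last also put 1 probe past the threshold on the higher side. For these alternatives the share of all probes past the threshold was not taken. The 3 counts therefore cannot be set against the 2.49%, nor read as a stronger or weaker histone result.

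**Figure D1:**
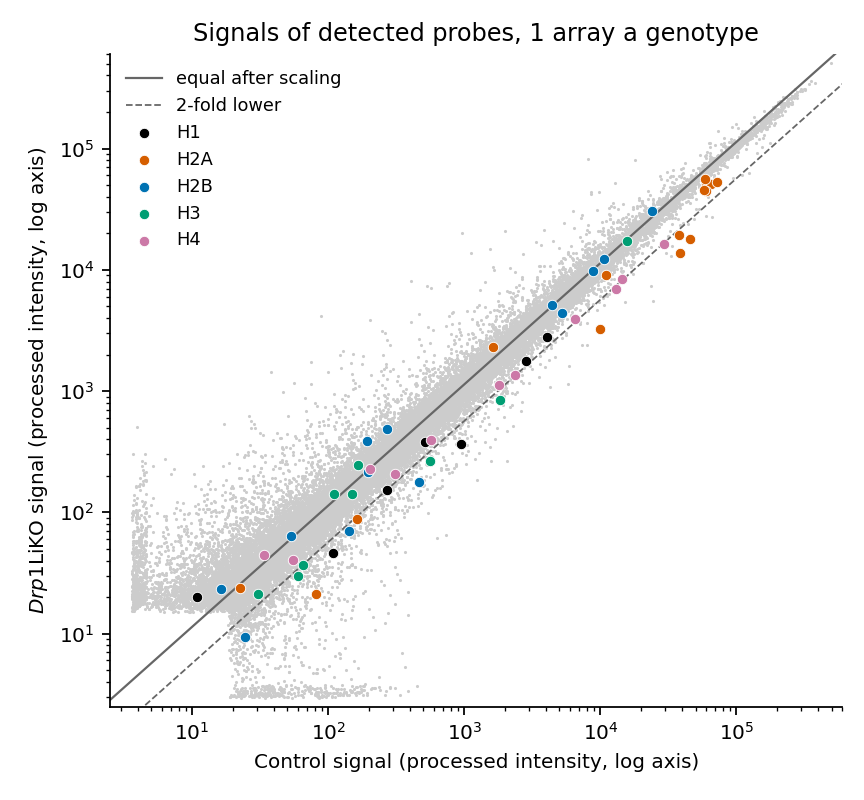
Signal of each detected probe in control cells (horizontal, log axis) and *Drp1*LiKO cells (vertical, log axis), 1 array per genotype, with all detected probes in grey and histone probes colored by class. The solid line marks equal signals after scaling and the dashed line a 2-fold lower signal. Signals are drawn as measured, without the floor, and 43 of the 55 histone points lie below the solid line.

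The probes past the Z score threshold were 4 of H2A, 2 of H1 and 1 of H2B. *Hist1h2ae* stood at -2.12 on the log2 scale, with signals of 81.9 (control) and 21.4 (*Drp1*LiKO), and at -1.03 with normexp. *Hist1h2ab* had 10009 and 3226, a log2 ratio of -1.82. *Hist1h2ao* had 38384 and 13770, a log2 ratio of -1.66. These 3 H2A probes lie on chromosome 13 of mm9, at chr13:23662489-23662548, chr13:23843392-23843451 and chr13:21902695-21902754, and they cover a range of levels from near the dim end of the array to its bright end. *Hist2h2bb*, an H2B gene of the smaller cluster on chromosome 3 (probe at chr3:96074056-96074115), had 464.6 and 176.6, a log2 ratio of -1.58. *Hist1h1b*, a linker histone (chr13:21871923-21871982), had 943.7 and 368.9, a log2 ratio of -1.54. *Hist1h2ag* had 45557 and 17963, a log2 ratio of -1.53, and the file gives its probe a span of chr13:23666685-23726365, far wider than the probe. *Hist1h1a*, another linker histone (chr13:23855888-23855947), had 109.4 and 46.3, a log2 ratio of -1.42. Without the floor *Hist1h1a*, *Hist1h1b*, *Hist1h2ag*, *Hist1h2ao* and *Hist2h2bb* fell short of the threshold, and *Hist1h1a* did so with normexp as well. Just short of the threshold stood *Hist1h3c*, with 1826 and 836.3, a log2 ratio of -1.31 and a Z score of -1.996.

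Bright probes, where the noise between spots was smallest, were also looked at apart, by their control signal. A cut on the control signal favors probes that are lower in *Drp1*LiKO cells. Above a control signal of 10000, 68.15% of all probes were lower, against 88.24% of the histone probes there. Of 2502 probes with a control signal above 10000, 25 were at least 2-fold lower in *Drp1*LiKO cells. Histone probes made up 17 of the 2502 and 6 of the 25. Past the Z score threshold on the lower side were 9 of the 2502, and 3 of these were the histone probes of *Hist1h2ab*, *Hist1h2ao* and *Hist1h2ag*. *Hist1h2ab* lay just above the cut, at 10009. With control signals from 1000 to 10000, 1 of 10 histone probes was at least 2-fold lower (10.0%), against 1.45% of all. None of the 10 passed the Z score threshold. At 1000 or below, 10 of 28 detected histone probes were at least 2-fold lower (35.7%), against 5.39% of all.

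The classes differed in their medians. The median log2 ratio was -0.89 over 7 detected H1 probes, -0.60 over 15 of H2A, 0.02 over 13 of H2B, -0.73 over 9 of H3 and -0.86 over 11 of H4. Those of H1, H2A, H3 and H4 stayed below 0 under every scaling, filter and background correction tried. That of H2B turned to -0.06 with normexp and to -0.22 with the deposited normalized values. Without a filter on dim probes, which adds probes at the floor ratio of -0.47, it was -0.24. The H3 median moved most in size among the others, to -0.34 with normexp and to -1.12 with the deposited values. The ratio was below 0 for 7 of 7 H1, 14 of 15 H2A, 6 of 13 H2B, 7 of 9 H3 and 10 of 11 H4 probes. In *Hist1h1t* and *Hist1h2ac*, counted here, it is a bound just below 0 with the control signal not well above background, which leaves their direction unknown. At least 2-fold lower were 3, 6, 2, 4 and 2 of them, in the same order.

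**Figure D2:**
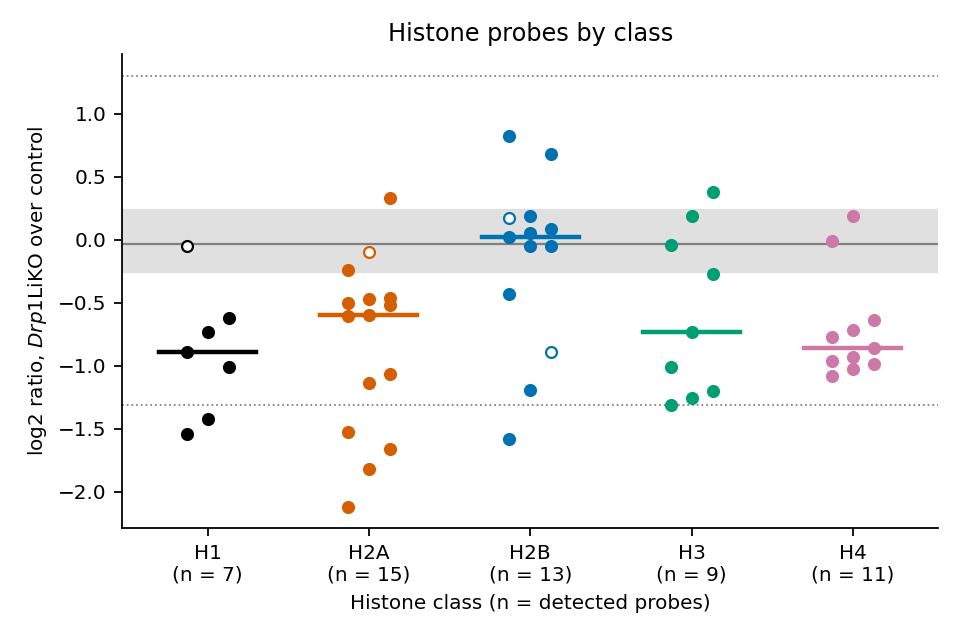
Log2 ratio of *Drp1*LiKO over control for each detected histone probe, by class. Bars are class medians, open points are bounds with 1 signal not well above background, the grey band spans the quartiles of all detected probes (-0.26 to 0.23) with their median as a line, and dotted lines mark a Z score of 2 in size. The medians of H1, H2A, H3 and H4 lie below the grey band and that of H2B inside it.

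H1 seals the nucleosome and helps to fold chromatin. The brightest H1 probe, of *Hist1h1c*, had 4087 in control and 2802 in *Drp1*LiKO hepatocytes, for a log2 ratio of -0.73, and a second probe of the same gene, at its stem-loop, had 514.8 and 380.8, a log2 ratio of -0.62. *Hist1h1e* had 2861 and 1756 (-0.89), and *Hist1h1d* 272.1 and 153.6 (-1.01). The somatic H1 genes thus ran from -0.62 to -1.54, with *Hist1h1b* and *Hist1h1a* at the low end. *Hist1h1t*, the linker histone of the testis, was well above background in *Drp1*LiKO cells alone and near the detection limit, so no fold is given.

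H2A carries the C-terminal tail where ubiquitin is attached in silenced chromatin. Its detected probes form a bright set and a dimmer one. The bright set consists of 9 probes that read the end of the coding sequence, which is nearly the same in many H2A genes, so that one probe can catch the mRNA of several. They are shown because their letters decide which genes a signal can come from. Capitals mark the longest run that a probe shares with another of the set, and the lines end at the stop codon where a probe passes it. In mm9 the whole probes lie at chr13:24026659-24026718 (*Hist1h2aa*), chr13:23626113-23626172 (*Hist1h2af*), chr13:22127035-22127094 (*Hist1h2ah*, minus strand), chr13:21845304-21845363 (*Hist1h2ak*, minus), chr13:21902669-21902728 (*Hist1h2an*), chr3:96043781-96043840 (*Hist2h2aa2*, minus) and chr3:96024378-96024437 (*Hist2h2ac*, minus), and those of *Hist1h2ag* and *Hist1h2ao* as given above.
Hist1h2aa: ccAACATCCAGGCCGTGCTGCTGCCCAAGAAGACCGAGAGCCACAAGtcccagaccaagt
Hist2h2ac: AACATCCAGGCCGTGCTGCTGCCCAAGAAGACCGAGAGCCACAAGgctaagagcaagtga
Hist1h2ah: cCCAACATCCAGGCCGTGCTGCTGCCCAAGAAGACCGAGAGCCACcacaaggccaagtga
Hist1h2af: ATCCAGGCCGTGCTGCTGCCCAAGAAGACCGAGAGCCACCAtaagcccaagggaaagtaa
Hist1h2ak: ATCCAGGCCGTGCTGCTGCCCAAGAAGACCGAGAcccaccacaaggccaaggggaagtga
Hist2h2aa2: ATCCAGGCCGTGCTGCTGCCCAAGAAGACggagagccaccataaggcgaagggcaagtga
Hist1h2an: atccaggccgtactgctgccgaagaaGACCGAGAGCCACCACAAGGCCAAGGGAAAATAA
Hist1h2ag: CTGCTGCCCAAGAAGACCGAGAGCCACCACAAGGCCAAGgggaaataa
Hist1h2ao: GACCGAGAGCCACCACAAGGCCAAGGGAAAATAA
The *Hist1h2aa* and *Hist2h2ac* probes share 45 bases in a row, and *Hist1h2ah* shares 44 with *Hist1h2aa*. The *Hist1h2an* and *Hist1h2ao* probes overlap on the genome and share 34.

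The 7 of these probes with no base behind the stop codon had control signals from 37818 to 71598 and log2 ratios from -0.24 to -1.14. The brightest of all histone probes, *Hist1h2ah*, had 71598 in control and 53147 in *Drp1*LiKO hepatocytes (-0.61). *Hist1h2an* had 37818 and 19475 (-1.14), and *Hist2h2aa2* 58313 and 56196 (-0.24). *Hist1h2aa*, a gene expressed mainly in testis, showed 60116 and 49329 (-0.47), a signal that its letters do not separate from that of *Hist2h2ac* with 57290 and 45883 (-0.50). Of the probes that run past the stop codon, into sequence that differs more between genes, *Hist1h2ag* with 12 such bases stood at -1.53, *Hist1h2ao* with 26 at -1.66, and another, dimmer H2A probe, *Hist1h2ai* with 37, at -1.07 (162.8 and 88.0). The ratios of the 3 were lower than those of 6 of the 7 coding probes, the exception being *Hist1h2an*. This split was seen after the values were known.

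Beyond the tail set, *Hist1h2ab* and *Hist1h2ae* had the lowest ratios of the class under the main processing, as given above, whereas with normexp *Hist1h2ae* at -1.03 stood above *Hist1h2ao* at -1.63 and *Hist1h2ag* at -1.51. *Hist3h2a*, on chromosome 11, was the only gene with more than 1 detected probe whose probes differed in sign. Its probe in the coding part (chr11:58768387-58768446) had 11000 in control and 9065 in *Drp1*LiKO hepatocytes, for a log2 ratio of -0.46. Its probe further downstream (chr11:58768954-58769013) had 1623 and 2312, a log2 ratio of 0.33, the highest of the class. *Hist1h2ac* was near the detection limit, well above background in *Drp1*LiKO cells alone, at 24.0.

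H2B pairs with H2A in the nucleosome, and its class held both the lowest ratio outside Hist1 and the highest ratios of all. *Hist2h2bb* was at -1.58 as given above, and *Hist1h2bf* had 141.4 in control and 70.3 in *Drp1*LiKO hepatocytes, for a log2 ratio of -1.19. Both probes hold the whole stem-loop shown above. *Hist1h2bg* was well above background in control cells alone, at 24.4, which makes its signal at least 1.85-fold lower in *Drp1*LiKO cells. On the other side, *Hist2h2be* had 194.6 and 389.6 in one probe (chr3:96027381-96027440), a log2 ratio of 0.82, and 268.5 and 488.7 in another (chr3:96027578-96027637), a log2 ratio of 0.68. They begin at bases 2337 and 2534 of a long transcript. The brightest H2B probe, *Hist1h2bc*, had 23770 and 30737 (0.19). *Hist1h2bm* (10551 and 12171, a log2 ratio of 0.02), *Hist1h2bn* (4389 and 5168, 0.05) and both probes of *Hist1h2bb* (8894 and 9773, and 195.2 and 213.4, each -0.05) differed by no more than 0.05. The testis gene *Hist1h2ba* had 5232 and 4397 (-0.43). Its probe lies in the body of the transcript and shares 17 bases in a row with a *Hist1h2bb* probe. Whether its signal comes in part from other H2B genes was not tested.

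H3 carries the N-terminal tail with many of the methylated and acetylated lysines. *Hist1h3c* was lowest, as given above, followed by *Hist2h3b* with 562.6 in control and 266.6 in *Drp1*LiKO hepatocytes (-1.26), *Hist1h3g* with 60.2 and 29.8 (-1.20) and *Hist1h3f* with 65.2 and 36.7 (-1.01). The brightest, *Hist1h3d*, had 15595 and 17206 and a log2 ratio of -0.04. Its probe matches 4 RefSeq transcripts in the file. The highest ratio, 0.38, belonged to a *Hist2h3c2* probe with 165.7 and 244.8, and the second probe of this gene had 110.0 and 142.2 (0.19).

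H4 differs little in protein sequence from gene to gene. Its ratios had the narrowest quartile range of the 5 classes, from -0.97 to -0.68. However, 5 of its probes share a run of at least 20 bases with another member, so their ratios are not independent. Of 11 probes, 9 lay between -0.64 and -1.08. *Hist1h4d*, the brightest, had 29276 in control and 16231 in *Drp1*LiKO hepatocytes (-1.03). Its probe was printed 10 times on each array, and its spots gave log2 ratios from -1.11 to -0.99 with an SD of 0.041, so the control spots (28395 to 30407) and the *Drp1*LiKO spots (15082 to 17342) did not overlap. These spots are one hybridization and not replicates of the genotype. A second *Hist1h4d* probe gave 6545 and 3894 (-0.93). *Hist2h4* had the lowest ratio, with 12984 and 6981 (-1.08), and *Hist4h4*, the single member on chromosome 6, had 2370 and 1355 (-0.99). The exceptions were *Hist1h4h* with 34.1 and 44.1, a log2 ratio of 0.19, and *Hist1h4i* with 201.9 and 227.9, a log2 ratio of -0.01. These probes begin at bases 24 and 33 of the transcript, as does that of *Hist1h4j* at base 24, which had 573.9 and 394.3 (-0.72).

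Ratios also went with the place of the probe in its transcript. After the values were seen, probes were put in 3 groups: those that hold letters of the stem-loop, those that start behind base 500 of the transcript (700 for the longer H1) without it, called downstream, and all others, called body. The downstream probes were taken to read what lies past the usual end of a histone mRNA. They were placed by the base number alone, and the stem-loop of each transcript was not located. In the transcript listed for *Hist1h2ae*, the stem-loop probe itself starts at base 542. Of 33 detected body probes 30 were lower in *Drp1*LiKO cells, with a median log2 ratio of -0.77. Of 11 stem-loop probes 10 were lower (the bound of *Hist1h1t* included), with a median of -1.07, and 6 of them were at least 2-fold lower. The remaining one, *Hist3h2ba*, was well above background in *Drp1*LiKO cells alone, at 23.2, and at least 1.12-fold higher there. With normexp the order of these groups turned, with a median of -0.57 for stem-loop and -0.62 for body probes. Of 11 downstream probes 4 were lower and 7 higher, with a median of 0.19, and none was 2-fold different. The downstream median turned to -0.22 with the deposited normalized values. Without a filter on dim probes it and the median of all probes were both -0.47, the ratio of probes set to the floor on both arrays. The lower downstream probes were those of *Hist1h1c*, *Hist2h3c1* (150.0 and 141.7, a log2 ratio of -0.27), *Hist1h2bg* and *Hist1h2ac*, the last 2 with a signal not well above background on 1 array. The higher ones were those of *Hist2h2be*, *Hist2h3c2*, *Hist3h2a*, *Hist1h2bc* and *Hist1h2be* (53.4 and 64.1, a log2 ratio of 0.08).

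**Figure D3:**
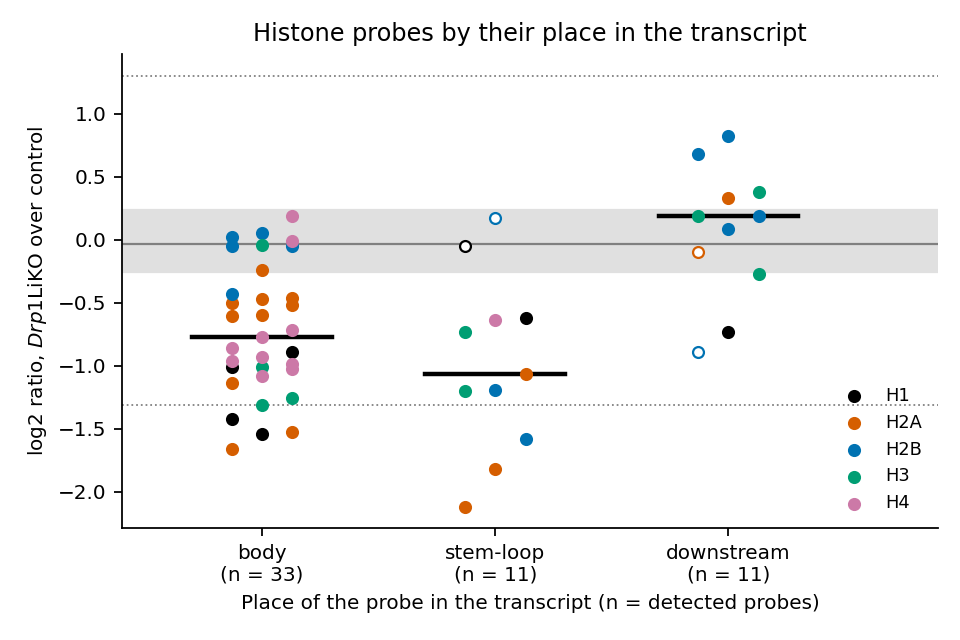
Log2 ratio of *Drp1*LiKO over control for each detected histone probe, by the place of the probe in its transcript and colored by class. Black bars are group medians (-0.77, -1.07 and 0.19), open points are bounds, the grey band spans the quartiles of all detected probes, and dotted lines mark a Z score of 2 in size. Of the 11 downstream points 4 lie above the grey band, 4 inside it and 3 below it, and most other points lie below it.

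Class and place overlap. H2B had 5 of its 13 detected probes in the downstream group, and H4 none. Within H2B, 5 body probes had a median log2 ratio of -0.05, 3 stem-loop probes -1.19 and 5 downstream probes 0.19. Within H2A, 10 body probes had a median of -0.56 and 3 stem-loop probes -1.82. In H3, 4 body probes had a median of -1.14, 2 stem-loop probes -0.96 and 3 downstream probes 0.19. H1 had a median of -1.21 over 4 body probes and -0.33 over 2 stem-loop probes, with 1 downstream probe at -0.73. Of the 2 stem-loop probes, *Hist1h1c* stood at -0.62 and *Hist1h1t* is a bound of unknown direction. In H4, 10 body probes had a median of -0.89 and the single stem-loop probe stood at -0.64. By their medians, stem-loop probes were thus lower than body probes in H2A and H2B and higher in H1, H3 and H4, where the H1 median rests in part on that bound. Probes of 3 further transcripts of the histone clusters, listed by transcript number and so outside the rule, had log2 ratios of -0.31 (H4a), 0.16 (H4i) and 0.13 (H2aa1), and start at bases 474, 581 and 529.

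By cluster, 36 of 41 detected probes of Hist1, the large cluster on chromosome 13, were lower, with a median log2 ratio of -0.73. In Hist2 on chromosome 3, 6 of 10 were lower, with a median of -0.25. In Hist3 on chromosome 11, 1 of 3 was lower. The Hist2 probes that were higher are those of *Hist2h2be* and *Hist2h3c2*, all in the downstream group.

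Since members share sequence, they are not independent of each other. A run of at least 20 bases shared with another member was found in 19 detected probes, 18 of which were lower, with a median log2 ratio of -0.86. Among the 36 other detected probes 26 were lower, with a median of -0.45. In the files 19 detected probes match 2 or more RefSeq transcripts, so their signals may sum several genes. These are not the same 19 as above. Some of the 36 are among them, such as *Hist1h3d*, *Hist1h2bm* and the brighter *Hist1h2bb* probe with 4 transcripts each. The 36 are therefore not all specific to 1 gene.

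Other genes of the histone supply were set beside the members, 1 probe a gene. Taken in the same way, 40 of 48 detected clustered histone genes were lower, with a median log2 ratio of -0.73, against 11192 of 20165 genes and a median of -0.05 over all genes. Most histones listed as replication-independent can replace clustered ones outside S phase and have polyadenylated mRNAs. Of this list 8 of 12 detected were lower, with a median of -0.23 and none past the Z score threshold. The lowest was *Cenpa*, the H3 variant of the centromere, with 411.1 in control and 215.1 in *Drp1*LiKO hepatocytes (-1.12), and the highest *H1f0*, not well above background in control cells and at 28.2 in *Drp1*LiKO cells, which gives a log2 ratio of at least 0.45. Genes for transcription, processing and decay of histone mRNA were lower in 10 of 13, with a median of -0.17 and a range from *Casp8ap2* at -0.64 (395.8 and 289.1) to *Lsm10*, a subunit of the U7 particle, at 0.18 (4754 and 6122). *Slbp* itself had 670.1 and 546.4 (-0.48) and *Npat* 209.8 and 183.3 (-0.38). Histone chaperones, which escort new histones to DNA, were lower in 14 of 18, with a median of -0.21, a lowest ratio of -1.07 for *Asf1b* (661.2 and 356.3) and a highest of 0.21 for *Asf1a* (22.9 and 30.1). No gene of these 3 lists passed the Z score threshold.

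S phase genes were lower as well. All 15 detected S phase genes were lower in *Drp1*LiKO cells, with a median log2 ratio of -0.82. Past the threshold were *Cdc6*, which loads the replicative helicase (730.9 and 226.7, a log2 ratio of -1.87), *Rrm2*, a subunit of ribonucleotide reductase (7314 and 2377, -1.80), and *Cdc45*, part of the active helicase (124.6 and 53.6, -1.40). The highest ratio was that of *Cdt1*, with 6341 and 6532 (-0.14).

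**Figure D4:**
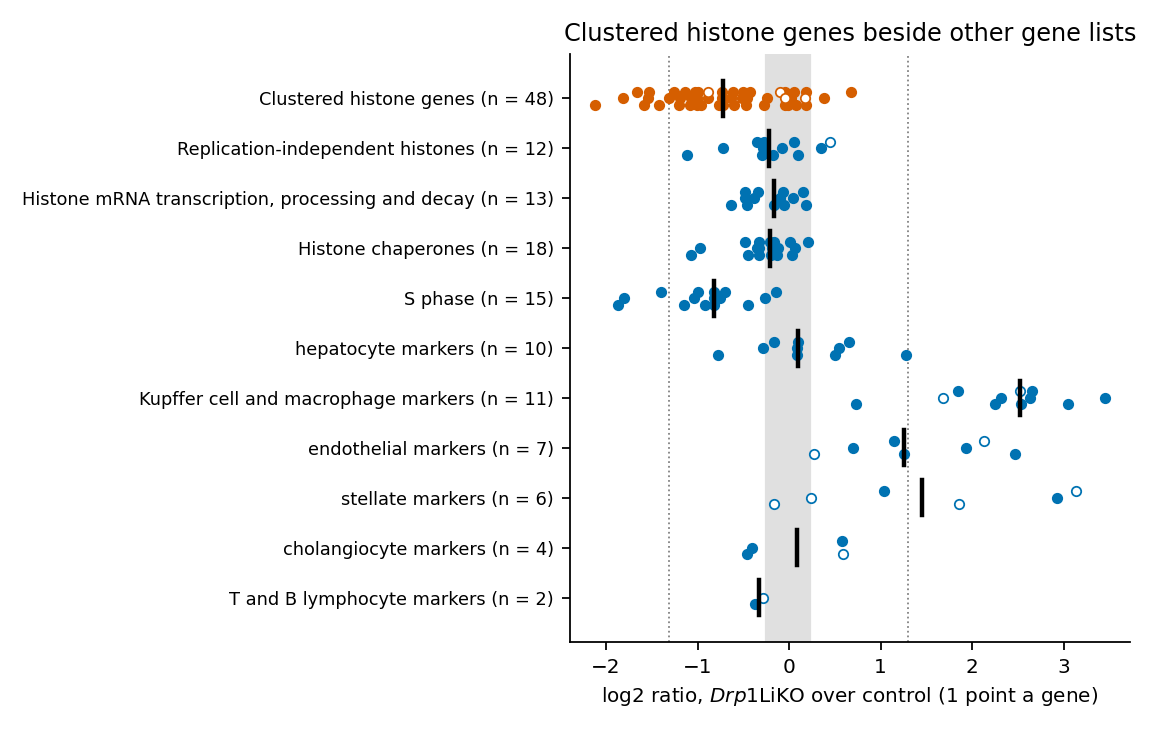
Log2 ratio of *Drp1*LiKO over control for each detected gene of the clustered histones (orange) and of other gene lists (blue), 1 probe a gene. Black bars are list medians, open points are bounds, the grey band spans the quartiles of all detected probes, and dotted lines mark a Z score of 2 in size. The medians of the clustered histones (-0.73) and of the S phase genes (-0.82) lie to the left of the grey band, and those of macrophage, endothelial and stellate markers to its right.

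The 2 preparations also differed in markers of other liver cells. Of the Kupffer cell and macrophage markers 11 of 11 detected were higher in *Drp1*LiKO cells, 10 past the Z score threshold, with a median log2 ratio of 2.52 and a sum of signals of 4706 for control and 20483 for *Drp1*LiKO hepatocytes. *Clec4f* and *Vsig4* were not well above background in control cells, and *Timd4* in neither. Endothelial markers were higher in 7 of 7, with a median of 1.26 and a sum of 4095 and 8313, and stellate markers in 5 of 6, with a median of 1.45 and a sum of 285.4 and 1596. In control cells 2 of these endothelial and 4 of these stellate markers were not well above background, so their ratios are bounds. Among the stellate ones is *Des*, the single lower marker, whose direction is therefore unknown. Cholangiocyte markers (4 detected, median 0.09, sum 29379 and 24885) and T and B lymphocyte markers (2 detected, median -0.33, sum 254.5 and 236.8) did not run one way or were mostly not detected. All 10 hepatocyte markers were detected on both arrays, 3 lower and 7 higher in *Drp1*LiKO cells, with a median of 0.10. Their sum of 513964 and 623021 rests mostly on *Alb* (219613 and 266703) and *Serpina1b* (201754 and 244010), while *Cps1* (65.4 and 116.2) and *Tat* (151.3 and 416.0) were dim. The lower ones were *Cyp2e1* (12679 and 8360, a log2 ratio of -0.78), *Fgb* (-0.28) and *Apoa1* (-0.17). The part of these cells in the histone values was not tested. In such bulk RNA, fewer cells in S phase and less histone mRNA per cell cannot be told apart.

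Promoter letters were compared last. All 56 names matched 1 gene each in the RefSeq table of GRCm38.p6, and a promoter sequence, from 250 bases before to 50 after the start, was at hand for 49. These windows were searched on both strands for 3 motifs. These were TATAAA, the letters that place the start of transcription in many genes, then the CCAAT box, which the factor NF-Y binds, and the octamer ATTTGCAT, which OCT1 binds and which is known from H2B genes. No motif overlaps another. TATAAA occurred in 29 of 49 (59.2%), against 14.2% of all 27025 promoters of that table. CCAAT occurred in 43 of 49 (87.8%), against 37.9%, and the octamer in 12 of 49 (24.5%), against 1.75%. The octamer stood in 7 of 17 H2A and 5 of 11 H2B promoters and in none of H1, H3 or H4. CCAAT stood in every H1, H2A, H2B and H3 promoter searched and in 2 of 8 of H4. Octamer promoters belong to *Hist1h2ae* and *Hist2h2bb*, among the lowest ratios, and also to *Hist1h2bm*, near 0. A match of letters is no proof of a site. Below are the 150 bases before the start site for 3 genes past the Z score threshold, 1 of each class concerned, with the searched letters in capitals, at chr13:21780626-21780775 (minus strand), chr13:23750938-23751087 (plus) and chr3:96269550-96269699 (plus) of GRCm38.p6.
Hist1h1b: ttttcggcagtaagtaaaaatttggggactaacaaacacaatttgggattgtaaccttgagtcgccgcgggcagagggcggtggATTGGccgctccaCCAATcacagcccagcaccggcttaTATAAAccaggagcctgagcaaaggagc
Hist1h2ab: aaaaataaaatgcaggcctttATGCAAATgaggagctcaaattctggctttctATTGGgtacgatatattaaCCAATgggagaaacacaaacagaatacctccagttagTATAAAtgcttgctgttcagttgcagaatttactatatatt
Hist2h2bb: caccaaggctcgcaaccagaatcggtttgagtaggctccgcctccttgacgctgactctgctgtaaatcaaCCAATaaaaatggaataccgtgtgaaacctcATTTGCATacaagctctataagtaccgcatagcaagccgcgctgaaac
Capitals that spell none of the 3 motifs are a motif read on the other strand. *Hist1h1b* holds CCAAT at 2 places and TATAAA 28 bases before the start, *Hist1h2ab* all 3 motifs, and *Hist2h2bb* the octamer 48 bases and CCAAT 79 bases before it.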

How the data were processed

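Total RNA of control and *Drp1*LiKO primary hepatocytes was measured on 1 Agilent array per genotype, read in 1 color. The authors deposited the Feature Extraction output of each array (version 9.5.1.1 per the labels). Its processed signal, a linear intensity from which that software had removed background, was used here. A second deposited table holds normalized intensities. Its method is not given in the sources used here and its *Drp1*LiKO column does not keep the order of that array, so it served only as an alternative.

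Without control spots and spots marked as outliers, the log2 signals of a probe were averaged and the 75th percentile (313.4 in control, 355.6 in *Drp1*LiKO cells) was subtracted. Probes were kept where most spots stood well above background on either array (27259 in control, 29464 in *Drp1*LiKO cells, 30275 in all). A dimmer signal was set to the lowest that was well above background (18.2 and 15.0) unless it was itself higher, and its ratio is then a bound. Z scores were taken over all probes kept. Probe positions, coordinates (mm9) and sequences are those of the array files, and promoters come from RefSeq (GRCm38.p6). Whole stem-loops were found by letters, as 6 bases that pair with 6 others across a loop of 4. Parts of one were found by fixed letters at the start or end of a probe, without a check of pairing. Values are given for members past the Z score threshold, for the brightest, highest and lowest member of each class, for members whose probes differ in sign and for testis genes, and other members were added where a group is described. Members and lists were chosen with earlier results of these data known. For the lists a gene was its brightest probe. The steps were tested on simulated data, with changes larger than nearly all histone ratios here and noise below that between dim spots. That test therefore does not show how well changes of the reported size are found. Python 3.11.15 (numpy 2.4.6, pandas 2.3.3, matplotlib 3.10.9) and R 4.3.3 (limma 3.58.1) were used. How many arrays there were limits the precision of all values.

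The alternatives were quantile normalization, scaling to 7 spike-in probes, normexp background correction with an offset of 50, the deposited values, stricter and looser filters on dim probes, signals without the floor, the outlier spots put back, 1 value a gene (the brightest or the median probe), a 2-fold threshold and a robust Z score, which uses the median and the absolute deviations from it.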

Additional observations from a re-analysis of the deposited data

How the results depend on the processing

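The median log2 ratio of the histone probes stayed below 0 under every alternative run. It was -0.71 with quantile normalization, -0.54 with normexp, -0.72 over probes well above background on both arrays, and -0.73 for the brightest and -0.70 for the median probe of a gene. Without a filter on dim probes the histone median and that of all probes were both -0.47, the ratio of probes set to the floor on both arrays. Without probes that share a run of at least 20 bases with another member, an alternative chosen after seeing the data, the histone median was -0.45. The 7 histone probes past the Z score threshold on the lower side became 17 with a 2-fold threshold, 24 with the robust Z score, 14 with normexp, 12 over probes well above background on both arrays and 2 without a floor. In the last case the SD over all probes rose from 0.65 to 0.90, and with normexp it was 0.41. On the higher side the robust Z score gave 1 and the others 0. The share of all probes past the threshold was taken only for the main setting and the 2-fold threshold. The other counts stand without it and do not show a stronger or weaker histone result. Class medians moved by more than 0.05, the spread between bright spots, in these cases. H1 was -0.71 with the deposited values, -0.81 with normexp and without a filter, and -0.95 for the brightest probe, the median probe and probes well above background on both arrays. H2A was -0.54 with quantile normalization and -0.47 without a filter. H2B was -0.22 with the deposited values, -0.06 with normexp and -0.24 without a filter. H3 was -0.34 with normexp, -0.60 without a filter, -0.81 with quantile normalization, -0.87 for the brightest and the median probe, and -1.12 with the deposited values. H4 was -0.77 for the brightest and the median probe. By place, body probes were at -0.64 with the deposited values, -0.62 with normexp and -0.67 without a filter, and stem-loop probes at -0.57 with normexp, -0.73 without a filter and -1.19 on both arrays. Downstream probes reversed to -0.22 with the deposited values and were at 0.06 with normexp. Without a filter their median was -0.47, the ratio of probes set to the floor on both arrays. The cause of the changes in the other alternatives was not tested. The 7 genes past the threshold and *Hist2h2be* kept their direction in every alternative, while *Hist1h1a*, *Hist1h1b*, *Hist1h2ag*, *Hist1h2ao* and *Hist2h2bb* fell short of the threshold without a floor, and *Hist1h1a* with normexp as well. No paired analysis was possible because each genotype has 1 array. Dim probes are limited by their signal over background, since 13 histone probes had none on either array.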
